A study of Bos taurus with 20 samples.

Results

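The adipogenic (A) clones are 10 of the 20 bovine mesenchymal stem cell (MSC) clones whose RNA was sequenced, and were taken as every library whose label calls it adipogenic. Each clone was grown from a single sorted MSC of calf adipose tissue, in medium with fetal bovine serum and basic fibroblast growth factor, and RNA was taken before any differentiation. A clones were those with high lipid staining once a portion was differentiated, by Oil Red O per the labels and by BODIPY per the study's methods, and the 10 non-adipogenic clones of the series entered here only the scaling of the libraries. The calves were Holstein Friesian x Aberdeen Angus, 1 to 6 months old. Animals 17 and 20 each gave 1 A clone (17-57 and 20-106, named by animal and clone number), animal 22 gave 22-11, 22-16, 22-27 and 22-121, and animal 23 gave 23-14, 23-62, 23-68 and 23-108. Each clone was sequenced as 1 library, so a clone has no replicate, the spread between clones includes that between cultures and libraries, and animal, adipose sample and culture of origin cannot be told apart. The question was what these clones share and where they differ, given that all of them could become adipocytes.

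MSCs of adipose tissue are stromal cells that make collagenous matrix and can form bone, cartilage or fat cells in culture. Commitment to fat runs through early factors of the C/EBP family, C/EBPβ and C/EBPδ, to PPARγ and C/EBPα, which switch on lipid-handling genes. PPARG encodes PPARγ, the nuclear receptor required for adipocyte formation, and its transcript is present at a low level in pre-adipocytes before differentiation. Visceral fat is also covered by mesothelium, an epithelium of mesodermal origin that expresses keratins and the transcription factor WT1.

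The 10 A libraries held between 14615493 and 29185355 counts on named genes, with a median of 16112862. Levels are given as CPM, a gene's share of the library's counts on the usual CPM scale, corrected by edgeR's TMM factor, and are compared between clones and not between genes, since transcript lengths were not used. Where no read was counted, up to 3 counts could have been missed, which came to between 0.108 and 0.215 CPM and covers counting error only. Of 22410 genes with a count in any A clone, 14163 had at least 10 counts in 3 or more A clones and were analysed, and 11504 had at least 10 counts in every clone. Clones 17-57 and 20-106 stood apart from the other 8 and are each the only A clone of their animal, while 22-11 and 22-16 were close to each other without being the same library. The main counts of genes and the distance test are also given without some of these clones. Most values of single genes and of gene lists are given over all 10 clones only.

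A common matrix-producing and contractile profile was shared by the clones. The 100 genes of largest count took 29.5 ± 1.64% of the counts (mean ± SD, n = 10), from 26.7% to 31.5%, and 47 genes were in the 100 largest of every clone, out of 177 that were in the 100 largest of any. These 47 included COL1A1, COL1A2, COL3A1, COL5A2, COL6A1 and COL6A2, which encode fibrillar and beaded-filament collagens, SPARC and FN1, which encode matrix glycoproteins, VIM, the mesenchymal intermediate filament, ACTB, ACTG1, TPM1, TPM2, TPM4, TAGLN and MYH9 of the actin cytoskeleton, and ITGB1 and ITGA5, the integrin subunits that bind fibronectin. The 15 genes of largest mean level included COL1A2, COX1, COL1A1, SPARC, VIM, FN1, COL3A1, ACTB, EEF1A1, TPM1, COL6A1, ACTG1, MMP2 and THBS1. COL1A2 lay between 13129 CPM in 17-57 and 24083 CPM in 23-108. Of these 15 genes, ACTB (SD of log2 CPM 0.17) and EEF1A1 (0.16) varied least. FN1 (0.85) varied most, with 14056 CPM in 17-57 and 16394 CPM in 20-106 and between 3184 and 9135 CPM in the other 8 clones, so the groups did not overlap. THBS1, a matrix protein that activates latent TGF-β, was next and ranged from 1717 CPM in 23-108 to 9091 CPM in 22-11.

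Most genes differed little among the clones. The SD of log2 CPM over the 10 clones had a median of 0.37 over the 14163 genes, 2468 genes were under 0.2 and 125 under 0.1. Among genes at a mean of 100 CPM or more, the lowest SD was that of CCT3, a subunit of the chaperonin that folds actin and tubulin, at 0.05 and 265 to 290.2 CPM (named after its values were seen, as are YWHAE and HNRNPK). YWHAE, a 14-3-3 protein, lay between 495 and 573 CPM, and HNRNPK, an RNA-binding protein, between 442 and 519 CPM. An SD of at least 1 was reached by 2047 genes (14.5%), at least 2 by 367 and at least 3 by 37. This share fell with the level of the gene, from 33.4% of the 1443 genes under 1 CPM on average to 4.3% of the 1882 genes at 100 CPM or more. Of the 11504 genes with at least 10 counts in every clone, 639 had an SD of at least 1. Over the 8 clones of animals 22 and 23 the count over all genes was 1443.

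Markers of mesothelium and simple epithelium led the variation. Clones 22-11, 22-16 and 23-62 carried keratin and other mesothelial transcripts at levels well above those of the other clones, and clones 17-57 and 20-106 were at or near 0 for most of them. KRT8, the type II keratin of simple epithelia, had the largest SD of all genes (5.03). It was at 584 CPM in 22-11, 435 in 22-16 and 158 in 23-62, against 13.2 in 23-68, 7.84 in 22-27, 1.19 in 23-108, 0.0656 in 23-14 and 0.0603 in 22-121, with no count in 17-57 or 20-106. The 3 high clones thus did not overlap with the other 7, and 22-11 was at least 2842-fold higher than 17-57 when 17-57 is set at 3 counts. KRT18, the keratin that pairs with KRT8, was at 75.0, 101 and 30.1 CPM in 22-11, 22-16 and 23-62 and at most 10.8 CPM elsewhere. KRT19, a further simple-epithelial keratin, was at 162, 228 and 114 CPM in those clones and at most 10.1 CPM elsewhere. Among the 30 most variable genes, LRRN4, UPK1B, BNC1 and GPM6A also had 22-11 and 22-16 as their highest pair. LRRN4, a transmembrane protein known from mesothelial cells, reached 119 CPM in 22-11 and 50.9 in 22-16, and BNC1, a zinc finger protein of epithelia, 35.8 and 25.3. CRB2, a cell polarity protein, was at 25.9 CPM in 22-11, 19.5 in 23-62 and 18.6 in 22-16, and at most 1.36 CPM elsewhere. UPK1B, a uroplakin, was also at 47.2 CPM in 23-108.

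WT1, a transcription factor of mesothelium and of its mesenchymal derivatives, followed another order. Its level was 0 in 17-57, 0 in 20-106, 60.3 in 22-11, 39.2 in 22-16, 23.4 in 22-27, 13.9 in 22-121, 2.17 in 23-14, 31.3 in 23-62, 19.6 in 23-68 and 99.8 in 23-108 (CPM). It was thus highest in 23-108, which had little KRT8, was present in every clone of animals 22 and 23, and was not counted in 17-57 and 20-106. The list of 12 mesothelial and simple epithelial genes was wider in spread than the average gene: 10 of its 11 members past the filter had an SD of at least 1, with a median SD of 3.17 against 0.37 over all genes. UPK3B was the exception, with an SD of 0.94. The summed level of the list was 18.3 in 17-57, 11.0 in 20-106, 1170.4 in 22-11, 954 in 22-16, 62.8 in 22-27, 30.5 in 22-121, 10.2 in 23-14, 407 in 23-62, 61.0 in 23-68 and 141 in 23-108 (CPM). Its members moved together across clones, with a median Pearson r of 0.666 between pairs against 0.002 between pairs of all genes, given as a description over 10 clones. EPCAM, which marks most epithelia, was at most 0.938 CPM, and CDH1, which encodes E-cadherin, at most 6.22 CPM. In such bulk libraries, more cells of one kind and more RNA per cell cannot be told apart.

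**Figure D1:**
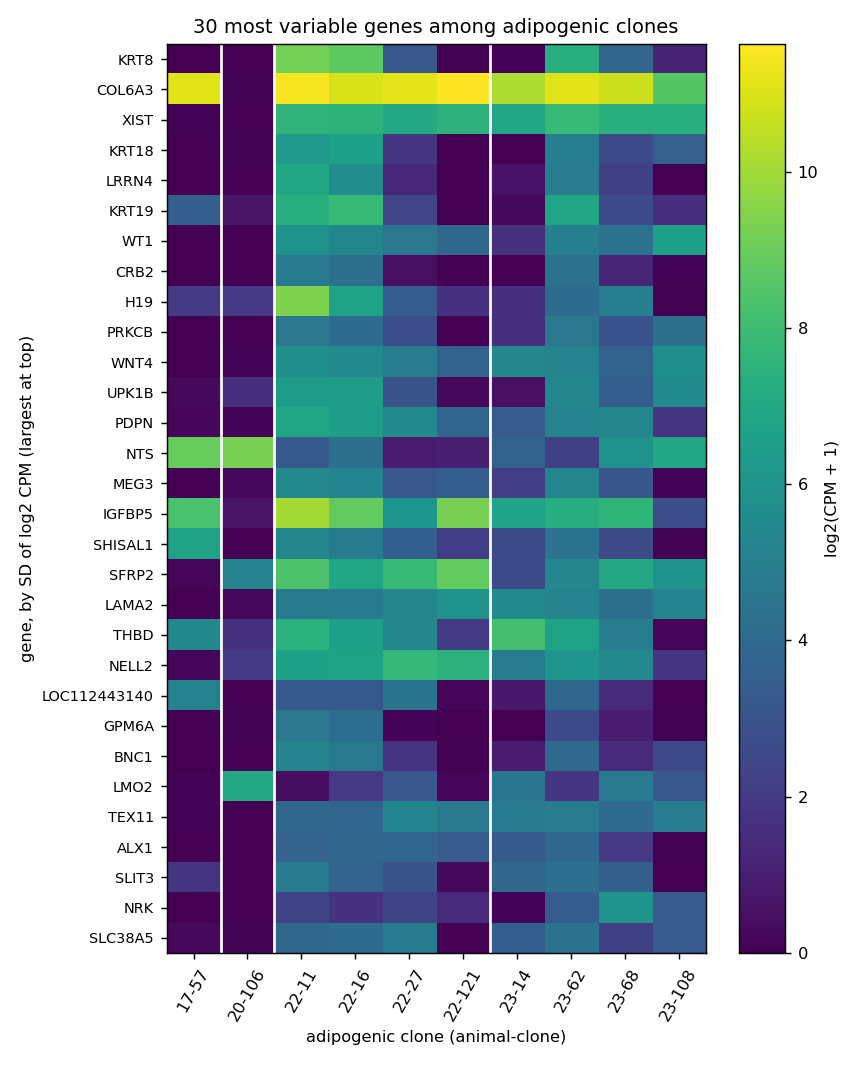
Heat map of log2(CPM + 1) for the 30 genes with the largest SD of log2 CPM among the adipogenic clones, 1 column per clone (animal-clone, white lines between animals) and 1 row per gene. KRT8, KRT18, KRT19, LRRN4, CRB2 and BNC1 are bright in 22-11, 22-16 and 23-62, and 15 of the 30 genes are at 3 counts or fewer in both 17-57 and 20-106.

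A second set of highly variable genes separated 17-57 and 20-106 from the rest. XIST, the non-coding RNA that coats the inactive X chromosome in female cells, was at 0.0686 CPM in 17-57 and had no count in 20-106, while the 8 clones of animals 22 and 23 lay between 118 and 236 CPM. The sex of the animals was not given in the sources used here. TEX11, a gene known from male meiosis, followed the same division, with 0.0686 CPM and 0 in the same clones and up to 37.0 CPM in the others, none of which overlapped with them. LAMA2, the laminin α2 chain of muscle basement membrane, was at 0 in 17-57 and 0.194 CPM in 20-106 against 18.4 to 62.7 CPM. WNT4, a secreted Wnt ligand, was at 0 and 0.0969 CPM against 11.6 to 56.3 CPM. NTS, which encodes the peptide neurotensin, went the other way. It was at 481 CPM in 17-57 and 604 in 20-106, against 120.4 in 23-108, 60.4 in 23-68 and at most 18.8 in the other 6 clones. Of the 30 most variable genes, 13 had 17-57 and 20-106 as their lowest pair, with ties at no count included. Among them, CRB2, LRRN4 and PRKCB also had no count in 22-121, CRB2 had none in 23-14 and LRRN4 none in 23-108. KRT8 had 1 count in 22-121 and 1 in 23-14, BNC1 had 1 in 22-121, ALX1 1 in 23-108 and NRK 1 in 23-14. These genes thus did not set the pair apart.

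Single clones lacked transcripts that every other clone carried. COL6A3, the α3 chain of collagen VI, had 1 count (0.0485 CPM) in 20-106, while the other 9 clones held between 380.5 CPM in 23-108 and 3172 CPM in 22-121. The other chains of the same collagen were present in 20-106, with 3126 CPM of COL6A1 and 2577 CPM of COL6A2, although both were lowest in that clone. PRELP, a leucine-rich matrix proteoglycan, was at 0.0969 CPM in 20-106 and 50.9 to 243 CPM elsewhere, and PARVB and FHL5 had the same pattern. Clone 17-57 alone had 3 counts or fewer of PCDH7, a protocadherin, IGF2BP2, an RNA-binding protein of growth control, GSTO1, a glutathione transferase, CADPS and ZNF827. PCDH7 was at 0.206 CPM there and at 75.1 to 187 CPM in the other 9 clones. In the opposite direction, ADGRF5, an adhesion G-protein-coupled receptor, reached 21.0 CPM in 17-57 alone, LOC101905293 10.4 CPM in 20-106 alone, and SYP, which encodes the vesicle protein synaptophysin, 14.2 CPM in 23-14 alone. These genes, apart from COL6A3, were chosen after their values were seen.

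The remaining highly variable genes included secreted proteins and imprinted RNAs. H19, an imprinted non-coding RNA, was at 656 CPM in 22-11 and 102 in 22-16, at 30.7 in 23-68 and 16.3 in 23-62, and under 10 CPM in the other 6 clones. MEG3, an imprinted non-coding RNA of another locus, was between 37.2 and 43.2 CPM in 22-11, 22-16 and 23-62, and at 10.0 CPM or less in the rest. IGFBP5, which binds insulin-like growth factors, ranged from 0.533 CPM in 20-106 to 1054 CPM in 22-11, with 5.93 CPM in 23-108. SFRP2, a secreted Wnt modulator, ranged from 0.137 CPM in 17-57 to 450.2 CPM in 22-121. NELL2, a secreted neural glycoprotein, was between 101 and 211 CPM in the clones of animal 22, between 2.57 and 69.0 CPM in those of animal 23, and at 0.137 CPM in 17-57 and 3.05 in 20-106, so that animal 22 did not overlap with the rest (animal 23 against 22, edgeR's adjusted p = 0.657). Between animals 22 and 23, 472 of 14163 genes did not overlap. LMO2, a transcriptional cofactor known from blood development, was at 138 CPM in 20-106 and at most 25.4 CPM elsewhere, and NRK, a kinase, was at 64.7 CPM in 23-68 and at most 9.45 CPM elsewhere. PDPN, the membrane glycoprotein podoplanin, PRKCB, SHISAL1, SLIT3, ALX1, SLC38A5, THBD and LOC112443140 complete the 30, each under 1 CPM in at least 1 clone.

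A gene was called on at 10 CPM or more and off at 3 counts or fewer, and 54 genes were on in at least 2 A clones and off in at least 2 others. Clone 22-11 had 41 of them on and none off, 22-16 had 40 on and none off, and 23-62 had 33 on and 1 off. At the other end, 20-106 had 2 on and 38 off, and 17-57 had 6 on and 46 off. Clone 22-121 had 25 off and 23-108 had 19 off. Of the 54 genes, 32 were off in both 17-57 and 20-106, and 18 of these were on in all of 22-11, 22-16 and 23-62. The set included WT1, WNT4, KRT8, KRT18, KRT19 and BNC1, the forkhead factors FOXD1 and FOXE1, ALDH1A2, which makes retinoic acid, and CD34, a sialomucin of early progenitors (FOXD1, FOXE1 and ALDH1A2 were named after their values were seen). FOXD1 was at 0 in 17-57 and 20-106 and between 4.16 and 14.8 CPM in the others, and ALDH1A2 was above 10 CPM only in 22-11, 22-16 and 23-62. Only 11 genes met the rule over the 8 clones of animals 22 and 23, 22 without 17-57 and 34 without 20-106.

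Clones of 1 animal were closer to each other than clones of different animals, and the difference passed the test with 17-57 and 20-106 included and not without them. Distance was taken as the Euclidean distance of log2 CPM over the 500 genes of largest SD. It averaged 54.8 ± 16.0 over the 12 pairs of clones from 1 animal and 76.5 ± 21.4 over the 33 pairs from different animals (mean ± SD over pairs, which share clones), a difference of 21.7 (one-sided exact permutation test over all arrangements of the animal labels, p = 0.00571, 10 clones). Over the 8 clones of animals 22 and 23 the difference was 4.21, and p = 0.2 in the same exact permutation test. Pairs from animals 22 and 23 lay between 35.1 and 83.7, with a median of 59.9, and overlapped with the 6 pairs of animal 22 (18.8 to 74.2) and the 6 pairs of animal 23 (42.0 to 73.4). The 17 pairs that involved 17-57 or 20-106 lay between 82.2 and 109. The closest pair of all was 22-11 and 22-16, at 18.8, and the next was 22-16 and 23-62, from different animals, at 35.1. The counts of 22-11 and 22-16 differed beyond sampling noise (chi-square of 21.9 per degree of freedom, the lowest of the 45 pairs), so they were kept as separate clones. Of the 8 clones of animals 22 and 23, 22-27 and 23-62 had their nearest clone in the other animal.

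**Figure D2:**
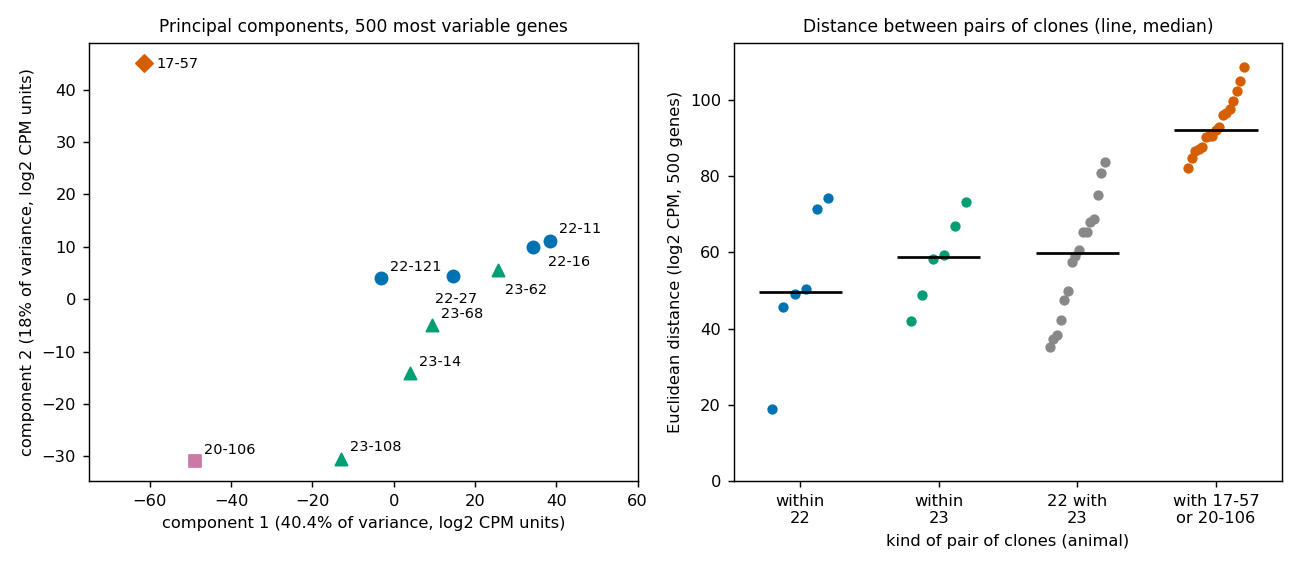
Left, the 10 adipogenic clones on the first principal components of log2 CPM over the 500 most variable genes, coloured by animal. Right, Euclidean distance for each pair of clones by kind of pair, with the median as a line. Clones 17-57 and 20-106 lie far from the other 8, and every pair that includes either of them is at 82.2 or more, while pairs within and between animals 22 and 23 overlap.

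No gene passed the test between the A clones of animals 22 and 23 (edgeR's quasi-likelihood test, 4 clones against 4, 0 of 14163 genes, 0%, lowest adjusted p = 0.525). In that test 1044 of the 14163 genes were at an unadjusted p under 0.05. The clones of 472 of the 14163 genes did not overlap between the animals, and whether this is more than chance gives was not tested. limma-voom also called 0, whereas DESeq2's Wald test called 100, 45 higher in animal 23 and 55 lower. Without 23-62, edgeR called 4. The animal accounted for a median of 10.2% of the variance of a gene over these 8 clones. An arbitrary split into 4 and 4 clones also takes up part of the variance, and whether 10.2% is more than that was not tested. Among the listed genes, CD24, a surface protein of committed pre-adipocytes in mice, was in these 472 genes without overlap. It was between 7.87 and 18.7 CPM in the clones of animal 22 and at most 2.56 CPM in those of animal 23, but its adjusted p was 0.607. FABP4, a fatty acid carrier, was between 6.66 and 20.1 CPM in animal 22 and between 2.19 and 9.10 CPM in animal 23 (adjusted p = 0.654).

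PPARG, CEBPB, CEBPD and the EBF factors were counted in every clone, at levels that differed several-fold between clones. PPARG was at 19.9 in 17-57, 12.7 in 20-106, 4.33 in 22-11, 6.02 in 22-16, 10.8 in 22-27, 19.5 in 22-121, 4.59 in 23-14, 7.99 in 23-62, 6.74 in 23-68 and 9.84 in 23-108 (CPM), highest in 17-57 and 22-121 and lowest in 22-11 and 23-14, a 4.61-fold range. Its SD of 0.77 stood above the median of all genes. Both clones of highest level came from different animals, as did both of lowest level. CEBPA, which acts with PPARG late in commitment, was at or below 2.29 CPM in 9 clones and at 5.67 CPM in 20-106. CEBPB ranged from 6.76 CPM in 22-16 to 37.8 CPM in 17-57, and CEBPD from 21.6 CPM in 22-27 to 156 CPM in 20-106. EBF1 and EBF2, which open chromatin at adipocyte genes, lay at 16.5 to 69.4 CPM and 1.84 to 9.41 CPM, respectively. ZNF423, a regulator of pre-adipocyte commitment, fell into a lower group of 20-106, 23-68 and 23-108 at 0.582 to 1.12 CPM and a higher group of 7 clones at 2.74 to 8.50 CPM. KLF5, which promotes adipogenesis downstream of C/EBPβ, was lowest in 17-57 at 2.13 CPM, and KLF15 was at most 1.27 CPM. SREBF1, the driver of lipid synthesis genes, was steadier, with 43.9 to 98.2 CPM. GATA2, an inhibitor of adipogenesis, was highest in 20-106 (105 CPM), closely followed by 17-57, and at most 50.4 CPM elsewhere. GATA3, a relative of GATA2, was the most variable factor (0 CPM in 17-57 to 3.14 CPM in 22-121) and TCF7L2, a mediator of Wnt signals, the least (21.9 CPM in 17-57 to 35.5 CPM in 23-68). Of the 16 factors past the filter, 5 had an SD of at least 1, and their median SD was 0.747.

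Genes of committed pre-adipocytes varied more than the factors, with 9 of 11 members at an SD of at least 1 and a median SD of 1.25. ANPEP, which encodes the surface peptidase CD13, was at 549 CPM in 23-14, between 17.4 and 33.3 CPM in 6 clones, and at 5.28 in 17-57, 4.60 in 20-106 and 1.64 in 23-108. CD36, the fatty acid translocase, was at 60.7 CPM in 17-57 and 16.2 CPM or less in the others, down to 0.525 CPM in 23-14. LPL, which releases fatty acids from lipoproteins, was high in 20-106 (83.2 CPM), 23-14 (67.0) and 23-68 (43.5) and between 5.03 and 24.7 CPM in the rest. FABP4 ranged from 2.19 CPM in 23-62 to 20.1 CPM in 22-11. THBD, the surface thrombomodulin CD141, ranged from 0.149 CPM in 23-108 to 295 CPM in 23-14, and was also high in 22-11 at 169 CPM. Clone 23-14, the highest in ANPEP and THBD, was thus the lowest in CD36 and among the lowest in PPARG. BMP7, a bone morphogenetic protein, was the most variable member of the list (0 CPM in 17-57 to 8.54 CPM in 22-16). PDGFRB was the least variable member (243 CPM in 23-62 to 871 CPM in 17-57), and DLK1 and CXCL14 had no count in any clone. No clone was highest for all of these genes: 17-57 led CD36, 20-106 LPL, 22-11 FABP4, 22-27 CD24 and 23-14 ANPEP and COL15A1.

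**Figure D3:**
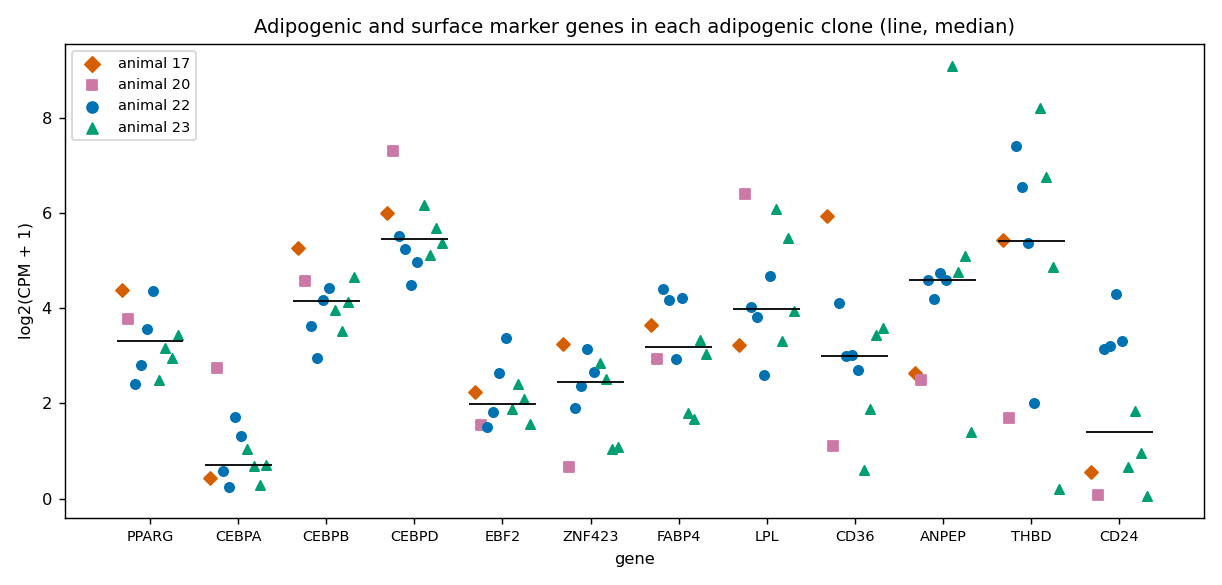
Level of 12 adipogenic and surface marker genes as log2(CPM + 1), 1 point per clone in order of animal and clone, with the median as a line. PPARG, CEBPB and CEBPD spread less than ANPEP, THBD, CD36 and CD24, and the highest clone differs from gene to gene.

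Of 20 mature adipocyte genes, 11 passed the filter, with a median SD of 0.603 against 0.37 over all genes. The median SD of all genes at a mean of 1 to under 10 CPM was 0.572, and several members were at such levels. LEP, ADRB3, CFD, PLIN4, SLC2A4 and AQP7 were under 1 CPM in every clone, ADIPOQ reached 1.52 CPM in 22-11, and RETN and PCK1 had no count. PLIN1, a lipid droplet coat protein, lay between 3.29 and 6.14 CPM, and FASN, the fatty acid synthase, between 150.4 and 297 CPM, with an SD of 0.25. Others differed more between clones: AGPAT2, of triglyceride synthesis, ranged from 7.80 CPM in 23-62 to 55.7 CPM in 17-57, LIPE, the hormone-sensitive lipase, from 1.35 CPM in 22-16 to 8.64 CPM in 17-57, and SCD, the stearoyl-CoA desaturase, from 28.1 CPM in 20-106 to 119 CPM in 23-14. Only DGAT2 of the 11 (9.1%) had an SD of at least 1, against 14.5% of all genes. Early progenitor genes differed more, with 4 of 7 at an SD of at least 1. CD55, a complement regulator, ranged from 1.03 CPM in 17-57 to 157 CPM in 20-106, SFRP4 from 1.45 CPM in 22-121 to 407 CPM in 22-16, and WNT2 was at 44.1 CPM in 20-106 and at most 3.75 CPM elsewhere. DPP4 and PI16, which define early progenitors in mice, were under 1 CPM in every clone. Genes of Aregs, the stromal cells that restrain adipogenesis in mice, had 5 of 6 members at an SD of at least 1. F3, which encodes tissue factor, was at 356 CPM in 22-11 and 259 in 22-16 and between 6.58 and 53.6 CPM in the rest, IGFBP3 ranged from 2.04 CPM in 20-106 to 1264 CPM in 17-57, and CYGB, a globin, from 0.194 CPM in 20-106 to 151 CPM in 17-57.

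Proliferation genes varied as a block. MKI67, the nuclear marker of cycling cells, was at 10.3 in 17-57, 1.02 in 20-106, 40.1 in 22-11, 32.1 in 22-16, 39.7 in 22-27, 61.7 in 22-121, 20.3 in 23-14, 97.7 in 23-62, 16.1 in 23-68 and 35.3 in 23-108 (CPM), highest in 23-62 and lowest in 20-106 and 17-57. All 20 members of the list had at least 10 counts in every clone, 9 had an SD of at least 1, and pairs of members had a median r of 0.898 across clones. Their summed level ran from 107 CPM in 20-106 and 196 in 17-57 to 589 in 22-121 and 735 in 23-62. Among senescence and secretory genes, 4 of 10 had an SD of at least 1, and MMP1, the interstitial collagenase, varied most (0.0969 CPM in 20-106 to 17.4 CPM in 23-14). CDKN1A, the p21 inhibitor of the cell cycle, was at 513 CPM in 20-106 and between 91.3 and 363 CPM in the others, so that the clone lowest in MKI67 was the highest in CDKN1A. CXCL8, the neutrophil chemokine, was at 648 CPM in 20-106 and at most 31.4 CPM elsewhere, and IL6 at 33.7 CPM in 20-106 and at most 2.74 CPM elsewhere. Clone 17-57, also low in MKI67, had 120.2 CPM of CDKN1A and 2.74 CPM of IL6. Cytosolic ribosomal protein genes also moved together (median r 0.907), but over a narrow range: none of 20 had an SD of at least 1, their median SD was 0.303, and their sum was lowest in 23-14 at 9455 CPM and highest in 22-16 at 18191 CPM. None of the 14 sterol synthesis genes had an SD of at least 1, and their sum ranged from 443 CPM in 20-106 to 1165 CPM in 23-14 (median r 0.609).

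Matrix and contractile genes differed widely between clones, and HOX genes about as often as all genes. Of 18 collagen genes, 7 had an SD of at least 1. COL5A2 was steady at 1619.9 to 2358 CPM, whereas COL8A1 was at 805 CPM in 17-57, 877 in 20-106, 592 in 23-68 and 386 in 23-14 and between 42.3 and 106 CPM in the other 6 clones, and COL18A1, of basement membranes, ranged from 7.85 CPM in 20-106 to 503 CPM in 17-57. Contractile and pericyte genes had 7 of 11 members at an SD of at least 1. MYLK, the myosin light chain kinase, ranged from 2.23 CPM in 20-106 to 2059.9 CPM in 23-108, while TAGLN stayed between 2524 and 4526 CPM. MYH11, the smooth muscle myosin, was highest in 17-57, at 116 CPM, against at most 26.4 CPM elsewhere. The MSC surface genes ITGB1, CD44, ENG and NT5E were counted at 64.5 CPM or more in every clone, PDGFRA ranged from 36.4 CPM in 17-57 to 304 CPM in 22-11, and LEPR had no count. Other members of this list fell lower. THY1 was at 17.8 CPM and MCAM at 0.121 CPM in 22-121, and NCAM1 at 1.10 CPM in 17-57, against highest levels of 187, 80.9 and 347 CPM, respectively. Of the 10 members past the filter, 4 had an SD of at least 1. Of 39 HOX genes, the homeobox factors that mark position along the body axis, 30 passed the filter and 5 (16.7%) had an SD of at least 1, against 14.5% of all genes. HOXA13 was the most variable, at 28.1 CPM in 20-106 and 10.2 in 17-57, between 4.92 and 6.78 CPM in 22-121, 23-14, 23-68 and 23-108, and between 0.433 and 0.553 CPM in 22-11, 22-16, 22-27 and 23-62. HOXB7 varied least of the list, from 3.79 CPM in 22-27 to 8.01 CPM in 23-14.

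Markers of bone and cartilage cells, and of other cell types that a stromal preparation could hold, were checked against the label. RUNX2, the osteogenic regulator, was at 69.2 to 144 CPM, while ALPL, BGLAP and DMP1 were under 1 CPM in every clone, and SPP1, a matrix protein of bone, ranged from 991 CPM in 22-11 to 8692 CPM in 23-14. SOX9, the cartilage regulator, was at 11.0 to 32.0 CPM, and COL2A1, COL9A1 and COL10A1 were under 1 CPM or at 0. Of 16 macrophage and leukocyte genes, 6 had no count in any clone, and the summed level of the list was 3.81 to 14.2 CPM. PTPRC, which encodes the leukocyte antigen CD45, was at most 0.253 CPM. CD163, a scavenger receptor, was the most variable of the list (0 CPM in 17-57 to 3.40 CPM in 22-27). The endothelial genes CDH5, TIE1, KDR, ESAM and CLDN5 were under 1 CPM in every clone, although PECAM1 reached 16.2 CPM in 22-11 and ERG, an ETS factor, 94.2 CPM in 23-14. The muscle factors MYOD1, MYF5, MYF6 and MYOG and the Schwann cell factor SOX10 were under 1 CPM throughout. Other members of these lists, which are not confined to those cells, were present: DES, the muscle intermediate filament desmin, ranged from 19.7 CPM in 20-106 to 681 CPM in 23-108, NES, the progenitor filament nestin, from 737 CPM in 22-11 to 2922 CPM in 17-57, TUBB3, a neuronal tubulin, from 7.16 CPM in 23-108 to 83.1 CPM in 17-57, NGFR, a neurotrophin receptor, from 3.54 CPM in 23-14 to 50.7 CPM in 22-121, and S100B from 11.2 CPM in 17-57 to 43.8 CPM in 22-27. Of the interferon response genes, 7 of 12 had an SD of at least 1, and IFIT2 and IFIT3 were highest in 23-14, at 49.6 and 40.3 CPM, and the highest level of IFIT2 elsewhere was 8.84 CPM.

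**Figure D4:**
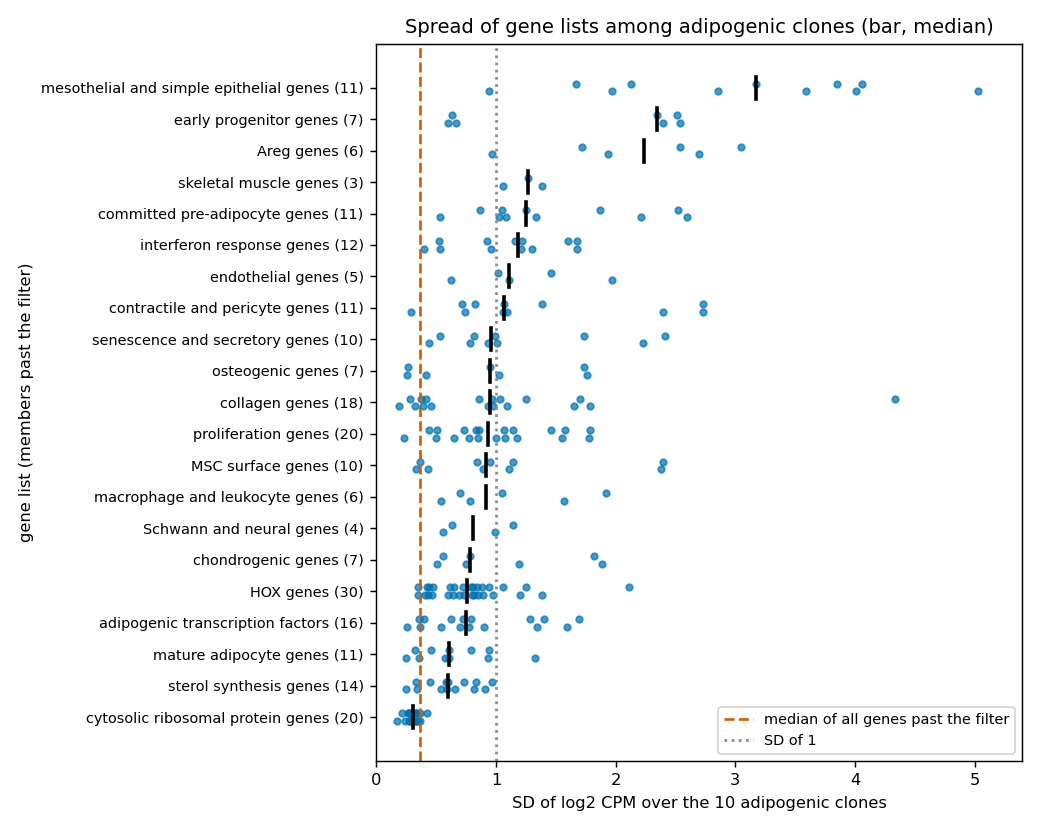
SD of log2 CPM over the 10 adipogenic clones for each member past the filter of 21 gene lists (points), with the list's median as a bar, the median of all 14163 genes as a dashed line and an SD of 1 as a dotted line. Mesothelial, early progenitor and Areg genes have the highest medians, and cytosolic ribosomal protein genes lie around the median of all genes.

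Across the 10 A clones, 22 of 14162 genes covaried with PPARG at an adjusted p under 0.05 (0.155% of genes tested; edgeR's quasi-likelihood test of the slope on log2 CPM of PPARG). They comprised 8 genes that rose with PPARG (0.0565%) and 14 that fell with it (0.0989%), and 2455 genes were at an unadjusted p under 0.05. Slopes are in log2 CPM per log2 unit of PPARG, ± standard error. The calls were not stable to the clones used. Leaving out 1 clone left between 0 and 10 calls, with 0 without 22-11, 0 without 22-16, 1 without 23-14, 3 without 20-106, 3 without 22-27, 4 without 22-121, 5 without 23-62, 7 without 23-68, 8 without 23-108 and 10 without 17-57. Over the 8 clones of animals 22 and 23 there was 1 call, and none over the 7 clones left without 22-11, 22-16 and 23-62. With the animal as a block 12 genes were called, 1 higher and 11 lower, of which 4, CRYBG3, INHBA and MAST4 among them, were also called without it. The slopes of the 22 called genes kept their sign under every alternative for which single slopes were compared, which left out PPARG on the linear scale. These genes were selected by their slope over the same clones, so this is a description and not a separate test.

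Among the genes that rose with PPARG, CCNG2, a cyclin that restrains the cell cycle, had the steepest slope, 1.49 ± 0.16 (adjusted p = 0.0210). Its level was 62.0 in 17-57, 34.7 in 20-106, 8.66 in 22-11, 9.09 in 22-16, 37.6 in 22-27, 106 in 22-121, 11.7 in 23-14, 19.3 in 23-62, 15.9 in 23-68 and 15.8 in 23-108 (CPM), so that 22-121, 17-57, 22-27 and 20-106, the 4 clones highest in PPARG, were also its 4 highest. BIN1, a membrane-bending adaptor, rose by 0.48 ± 0.06 from 55.6 CPM in 23-68 to 116 CPM in 22-121 (adjusted p = 0.0402). ITPR1, the inositol trisphosphate receptor of calcium stores, rose by 0.65 ± 0.09 from 80.6 CPM in 22-11 to 250.3 CPM in 17-57. PIK3C2B, a lipid kinase (0.69 ± 0.10), PHLPP1, a phosphatase of the kinase AKT (0.68 ± 0.10), GRK5, a receptor kinase (0.76 ± 0.11), and ARMCX1 (0.76 ± 0.12) also rose, each with an adjusted p of 0.0402. With the animal as a block none of these 7 genes was called: the adjusted p was 0.0693 for CCNG2, 0.108 for BIN1 and 0.121 for ITPR1.

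Among the 14 genes that fell with PPARG, THRB, the thyroid hormone receptor β, had a slope of -1.78 ± 0.20 (adjusted p = 0.0222). It was at 2.13 in 17-57, 4.99 in 20-106, 39.0 in 22-11, 33.0 in 22-16, 13.5 in 22-27, 4.46 in 22-121, 49.3 in 23-14, 15.1 in 23-62, 19.1 in 23-68 and 18.5 in 23-108 (CPM), with the 3 clones lowest in PPARG, 22-11, 23-14 and 22-16, as its 3 highest. INHBA, which encodes the subunit of activin A, a TGF-β family ligand, was at 89.4 in 17-57, 77.9 in 20-106, 569 in 22-11, 384 in 22-16, 98.1 in 22-27, 67.7 in 22-121, 384 in 23-14, 147 in 23-62, 223 in 23-68 and 69.4 in 23-108 (CPM), with a slope of -1.32 ± 0.20 (adjusted p = 0.0402). The same 3 clones were its highest, and did not overlap with the other 7. CRYBG3, a crystallin-domain protein, ran from 282 CPM in 22-11 to 32.0 CPM in 22-121 (-1.34 ± 0.19). UGDH, which makes the sugar precursor of glycosaminoglycans, ran from 194 CPM in 23-14 to 44.8 CPM in 17-57 (-0.89 ± 0.13), and PRKX, a kinase, from 224 CPM in 23-14 to 20.0 CPM in 22-121 (-1.30 ± 0.19). CREB3L2, a factor of the secretory pathway, ERN1, a sensor of unfolded protein, ETV3, CMTM3, PITPNC1, MAST4, NFXL1, TXLNB and LOC112443502 made up the rest, with slopes from -0.45 ± 0.07 (ERN1) to -2.93 ± 0.44 (TXLNB, at most 2.17 CPM). With the animal as a block, CRYBG3, INHBA and MAST4 kept their call, and THRB (adjusted p = 0.0510) and the other 10 falling genes lost it. In that fit, INHBB, the other activin subunit, PTX3, LIF, DOT1L, SPRED1, TSKU, CSF2RB and GFPT2 were also called, all falling with PPARG.

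**Figure D5:**
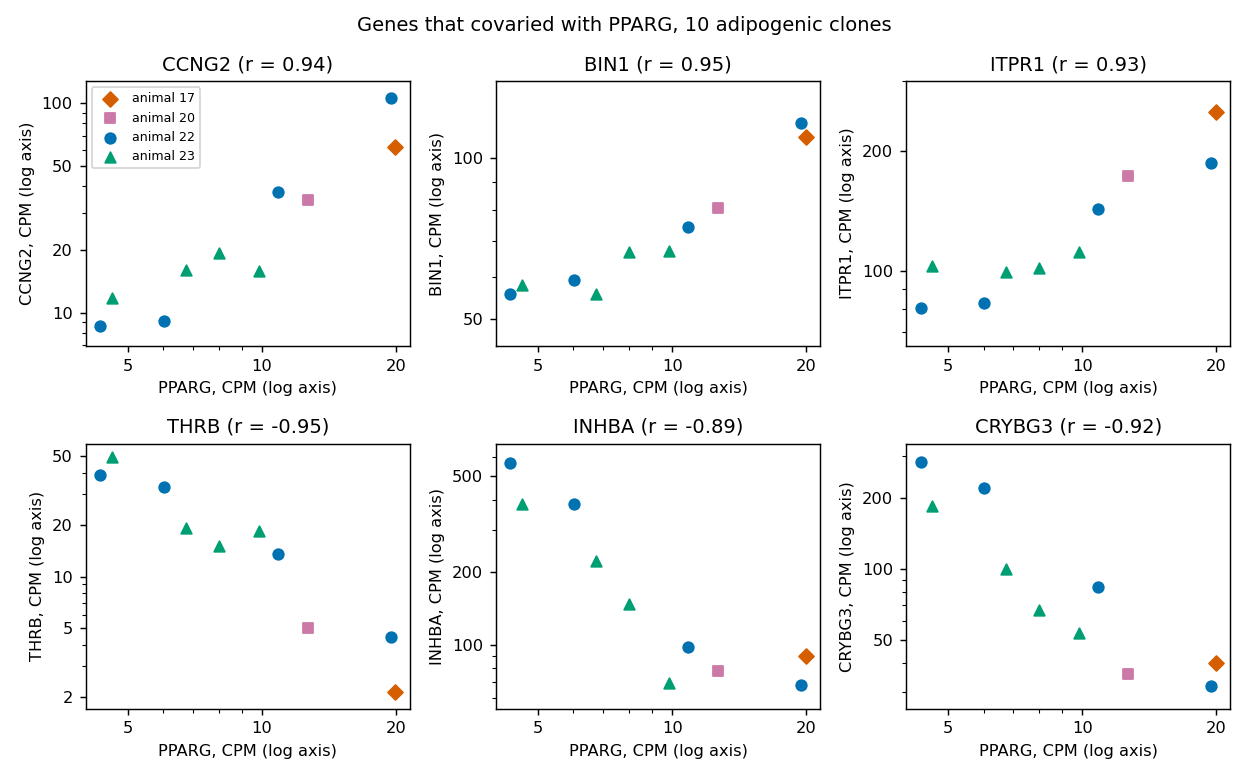
Level of 6 genes called for covariation with PPARG against the level of PPARG, both as CPM on log axes, 1 point per adipogenic clone with the animal as colour and marker, and Pearson's r of log2 CPM. CCNG2, BIN1 and ITPR1 are highest in 17-57 and 22-121, the clones highest in PPARG, and THRB, INHBA and CRYBG3 are highest in 22-11, 22-16 and 23-14.

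As a description by rank of correlation, the 8 genes of highest Pearson r with PPARG included DDX6 (0.97), BIN1 (0.95), S100PBP (0.94), CCNG2 (0.94), COG6 (0.94), GLRX2 (0.94) and COMMD10 (0.93), and the 8 of lowest r were FAM189A2 (-0.97), THRB (-0.95), FHOD3 (-0.94), ERN1 (-0.94), NUP153 (-0.94), ZNF227 (-0.94), LOC112443502 (-0.94) and NFXL1 (-0.94). DDX6, a helicase of RNA decay, had a Spearman rho of 0.976 and a permutation p of 2e-05 for both (adjusted over 14162 genes, 0.0405), and its r was 0.936 without the 2 clones farthest from the median of PPARG. For THRB, rho was -0.976 and r without those clones -0.915. In all, 23 genes had an adjusted permutation p under 0.05 for r, 13 for rho and 6 for both. Over the 22 genes called by edgeR the size of r was at least 0.894 over 10 clones, at least 0.799 without the same 2 clones, and at least 0.893 for deviations from the animal means within animals 22 and 23. These genes were selected by their slope over the same clones, so these sizes are a description and not a separate test of the calls. The number of genes detected in a library had r = -0.63 with PPARG (permutation p = 0.0506, adjusted over 5 library measures, 0.253; rho = -0.47, permutation p = 0.18; r = -0.39 without the 2 farthest clones), and its part in these calls was not tested.

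No member of any list passed the test for covariation with PPARG. Over all 14162 genes tested, 7264 slopes were positive (7233 with the animal as a block), and 2455 genes were at an unadjusted p under 0.05 in edgeR's test. The list of adipogenic transcription factors had 15 tested members besides PPARG, and these included GATA2, an inhibitor of adipogenesis. Of the 15, 14 had a positive slope, GATA2 among them, with a median of 0.299 against 0.006 over all genes. An unadjusted p under 0.05 with a positive slope was reached by 5, among them CEBPB (0.66 ± 0.19, adjusted p = 0.132) and EBF2 (0.64 ± 0.26, adjusted p = 0.244). The only negative slope was that of KLF5, which promotes adipogenesis (-0.83 ± 0.25, adjusted p = 0.141). With the animal as a block 11 of the 15 were positive, with a median of 0.244, and CEBPD, EBF1 and KLF4 turned negative. All 11 mesothelial and simple epithelial genes past the filter had a negative slope, with a median of -2.86 (-2.70 with the animal as a block, all 11 negative), and 7 were at an unadjusted p under 0.05. Their signs are not separate observations, since these genes moved together across clones (median r 0.666). KRT8 had a slope of -6.07 ± 1.73 (adjusted p = 0.133). Clones 22-11 and 22-16, low in PPARG, were the highest of this list, but 23-14, also low in PPARG, was the lowest, and the part of these transcripts in the covariation was not tested. Of the fat cell genes, 5 of 11 mature adipocyte genes had a positive slope and 2 were at an unadjusted p under 0.05, and FABP4 (0.03 ± 0.37), LPL (-0.24 ± 0.55) and CD36 (0.83 ± 0.56) had adjusted p-values of 0.977, 0.865 and 0.482, with signs that changed between alternatives. ANPEP (-2.01 ± 0.68, adjusted p = 0.181) and THBD (-1.63 ± 0.74, adjusted p = 0.290) had negative slopes that did not pass. Slopes of proliferation genes were divided evenly, with 10 positive and 10 negative, but 19 of 20 were positive with the animal as a block. Because these genes moved together across clones (median r 0.898), their signs are not separate observations. Of 30 HOX genes 18 were positive, and 27 with the block. RPL4 and TOP2B, the reference genes of the study's qPCR, had slopes of 0.06 ± 0.12 (of either sign, by alternative) and 0.25 ± 0.08 (adjusted p = 0.848 and 0.157), and SDs of 0.27 and 0.26.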

How the data were processed

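RNA of 20 undifferentiated MSC clones from 4 animals was sequenced as paired reads from a strand-specific kit, and the 10 adipogenic clones were analysed. Per the labels and the study's methods, the authors trimmed reads with Trimmomatic (0.36), aligned them to ARS-UCD1.2 with STAR (2.5.2b) and deposited raw counts of uniquely mapped exonic reads per gene from featureCounts (Subread 1.5.2). The strand setting of the counting was not given in the sources used here, so overlapping and antisense genes cannot be told apart, and near-identical copies lose reads. From these counts, edgeR (4.0.16, R 4.3.3) gave TMM factors over all 20 libraries, log2 CPM (prior count of 2) and robust quasi-likelihood tests of 14163 genes with at least 10 counts in 3 or more A clones, with Benjamini-Hochberg adjustment and a threshold of 0.05. The PPARG fit had no animal term. Permutation p-values of correlations used 100000 resamples. limma (3.58.1) and DESeq2 (1.42.0) were alternatives. A row without a gene name, 0.113% to 0.309% of counts, was left out. P-values measure the spread between these clones, and clones of 1 animal share its genotype. The tests were also run on simulated counts of independent clones, with the same dispersion for every gene and no animals. The clones studied here differ from that setting, so the simulation does not show how reliable these calls are. The promoter description planned for the most variable genes was not run for want of a promoter table. Clones were numbered within animals and no number pairs them.

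The genes named were the 15 of largest mean CPM, the 30 of largest SD, the 8 of highest and lowest r with PPARG, a fixed set of adipogenic, surface and reference genes, and the most and least variable members of each list. The other genes named, including the called ones, were chosen after their values were seen. Members and lists were chosen with earlier results of these data known. Some genes that met these rules are counted but not reported here by name.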

Additional observations from a re-analysis of the deposited data

Results flagged for a closer look

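Among 126 sets of values over the 10 A clones, 4 had a clone at one end whose gap to its nearest neighbour took more of the whole range than Dixon's 95% critical value allows (3.17%, where chance flags about 5%). COL6A3 was one, with 20-106 at the low end and a gap of 0.786 of the range of log2 CPM (0.0485 against 380.5 CPM in the next clone). ANPEP was another, with 23-14 at the high end and a gap of 0.487 (549 against 33.3 CPM). RPL4, a ribosomal protein gene used for reference in qPCR, had 23-14 at the low end and a gap of 0.515 (611 against 844 CPM). KLF5 had 17-57 at the low end and a gap of 0.468 (2.13 against 6.15 CPM), just past the critical value. Outside the genes, the row without a gene name held up to 0.309% of the counts of an A clone (23-68, with 0.221% in the next clone), above the limit that a count of 0 allows.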

How the results depend on the processing

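The count of genes that covaried with PPARG, 22, moved most. It was 47 with TMM factors from the A libraries alone, 9 with upper-quartile factors, 69 among genes with at least 10 counts in every clone, 973 with DESeq2, 9 against PPARG on the linear scale, 12 with the animal as a replicate block, 1 over the 8 clones of animals 22 and 23, and 0 over 7 clones without 22-11, 22-16 and 23-62, an alternative chosen after seeing the data. Leaving out 1 clone gave 0 to 10. Between animals 22 and 23, where 0 genes were called, DESeq2 called 100, and leaving out 1 clone gave 0 to 4. The distance between animals less that within them, 21.7, fell to 4.21 (exact permutation p = 0.2) over the 8 clones of animals 22 and 23, and lay between 14.8 and 26.4 with 1 clone left out. The count of genes with SD of at least 1, 2047, became 964 after DESeq2's variance stabilising transformation, 639 among genes with at least 10 counts in every clone, 1327 around the means of animals 22 and 23, and 1794 to 2125 with 1 clone left out. The 54 on and off genes became 117 and 25 with on set at 5 and 20 CPM, 20 with off at 0 counts, 92 with off under 0.5 CPM, 22 to 54 with 1 clone left out, and, in alternatives chosen after seeing the data, 23 without 22-11, 22-16 and 23-62 and 11 over animals 22 and 23. The 20 largest genes held 14.8% of the counts. The causes were not tested. No slope of the 22 called genes, which were selected by slope over the same clones, changed sign. Single slopes were not compared for PPARG on the linear scale. Over the alternatives, 575 slopes kept sign and side of the threshold, 268 lost their call, 20 gained one and 13, of 4 genes not called, changed sign. The slope of FABP4 on PPARG was -0.0185 with the animal as a replicate block and -0.24 to 0.46 with 1 clone left out, and the slope of LPL on PPARG was -0.64 to 0.27 with 1 clone left out. The slope of CD36 on PPARG was -0.20 with the block, -0.23 over the 8 clones of animals 22 and 23 and -0.44 to 1.62 with 1 clone left out. The slope of RPL4 on PPARG was -0.0323, -0.0188 and -0.0485 to 0.12, respectively. Over all genes, 2813 of 14162 slopes changed sign with the block. Clone numbers pair no samples across groups, so the only block was the animal, under which clones 17-57 and 20-106 carry no information. The promoter alternatives were not run. Depth limits calls of off: 3 counts correspond to 0.108 to 0.215 CPM.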
